A study of Mus musculus with 3 samples.

Results

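The genes described here are those of antioxidant defence in the mouse retina at postnatal day 7: the enzymes that make and use glutathione, the thioredoxin and peroxiredoxin system, superoxide dismutases and catalase, metallothioneins and ferritin, selenoproteins, and the Nrf transcription factors with Keap1. They were taken as the probe sets annotated to a single gene whose symbol matches a fixed list of symbol stems. The match used names alone and no measured value, but the set was chosen with earlier results of these data known. The rule gave 93 of 12422 probe sets that were not controls, reading 69 of 8251 genes. Of these genes, 7 matched by spelling and belong to other systems: the macrophage scavenger receptor gene Msr1, the selectin genes Sele and Selp, the selectin ligand gene Selplg, Sel1l and Sel1l2, and the selenium-binding protein gene Selenbp1. They were kept in the counts and are named where they enter. A further 6 probe sets that read several genes at once did not meet the rule.

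All values came from 3 samples of total RNA, each hybridised to 1 Affymetrix oligonucleotide array of the type U74Av2. Each sample was neural retina pooled from 3 to 4 wild-type mice of a mixed 129/SvEv and C57BL/6 background, littermates of Rp1-/- animals, taken in the early afternoon. There is 1 group, so no conditions were compared, and the questions were which genes gave signal and how far the pools differed. Sets of 3 values below are scaled intensities in pools 1, 2 and 3, the numbers being names without an order, and means carry the SD over n = 3 pools. The labels describe each sample as a pool and say nothing of separate preparation, so a p-value measures only how far these 3 samples spread, and some of that spread may be technical. Precision is limited by the number of arrays.

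Glutathione is a small thiol that cells hold in high amounts. It is made by glutamate-cysteine ligase and glutathione synthetase, used by peroxidases to reduce peroxides and by transferases to tag reactive molecules, and returned to its reduced form by glutathione reductase. Thioredoxin and thioredoxin reductase do the like for protein thiols and feed the peroxiredoxins. The transcription factor Nrf2, the product of Nfe2l2, is held back by Keap1 and drives many of these genes through antioxidant response elements. Photoreceptors have a high oxygen use and membranes rich in polyunsaturated lipids, and the retina is known for its reliance on these enzymes.

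Rod markers showed the labelled tissue, with 13 of 14 measured rod genes above background in all pools. Background was a bar for each array, the 90th percentile of 68 genes known from organs other than the eye, at 170.3, 186 and 240.1, and 5 of those genes passed it in all pools. Lens genes, which dissection can carry over, were low in pool 1: their 12 measured members summed to 26967, 127518 and 136902, with 8 of them above background in all pools. The 11 measured red cell genes summed to 9947, 15884 and 9175 and the 7 pigment epithelium genes to 901, 1146 and 1187. The 3' to 5' signal ratio of the actin control, which reflects RNA length, was 1.81, 1.27 and 1.3. That of the Gapdh control was 0.874, 0.788 and 0.812, also highest in pool 1 but with the pools closer together. In bulk samples, fewer cells of a type and less RNA per cell cannot be told apart.

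At the bar used, most of the antioxidant genes gave signal. By the 1 probe set chosen per gene, 43 of 69 genes (62.3%) were above background in all 3 pools, against 52.6% of all genes. Without the genes that matched by spelling only, it was 41 of 62. Another 5 passed in 1 or 2 pools (Gclc, Gstk1, Srxn1, Hmox2 and Selenbp1) and 21 in none, of which Gstm2 had another probe set above background in all pools. Genes under the bar may still have been expressed. With the bar at the 95th percentile of those 68 genes the count was 33 of 69, no longer most, against 42.8% of all genes. At the 75th percentile it was 46 of 69, near the share of all genes (65.1%).

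**Figure D1:**
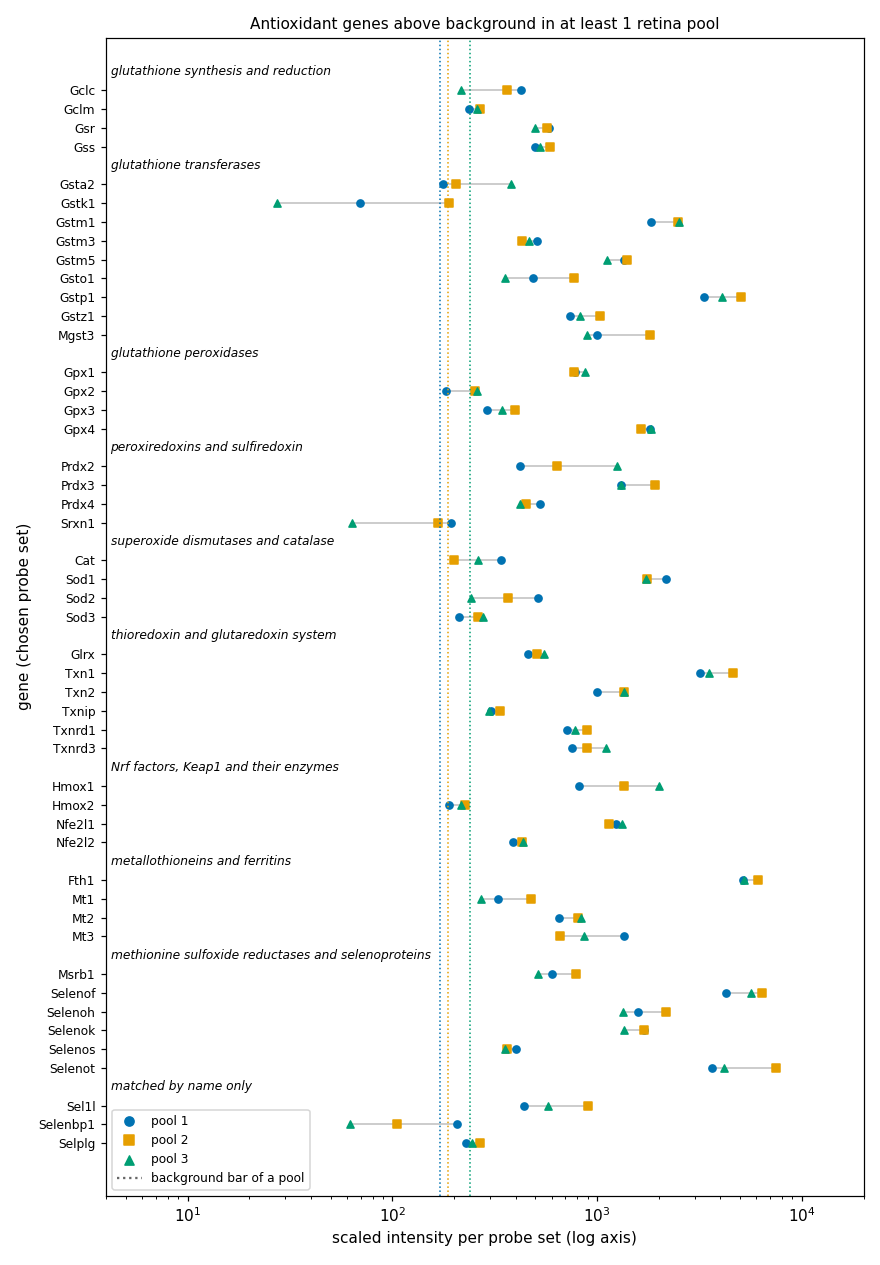
Scaled intensity (log axis) of the 48 genes above background in at least 1 pool, by role, with 1 symbol per pool and the background bar of each pool as a dotted line. For most genes the 3 symbols lie close together, while Prdx2 and Hmox1 spread widely with pool 1 lowest and pool 3 highest. Gstk1, Srxn1 and Selenbp1, not above the bar in all pools, also spread widely, with pool 3 lowest.

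Of the 4 genes that make and recycle glutathione, 3 were above background in all pools, against 52.6% of all genes. Gss, which encodes glutathione synthetase, was at 498, 591 and 525, and Gsr, which encodes glutathione reductase, at 583, 572 and 499. The modifier subunit gene of glutamate-cysteine ligase, Gclm, was at 236, 269 and 259, just above the bar in pool 3. These 3 genes stayed within 1.14-fold to 1.19-fold between their highest and lowest pool. Gclc, the catalytic subunit gene, was at 424, 362 and 217, a range of 1.95-fold, so that pool 3 lay below its bar while pools 1 and 2 lay above theirs. A second probe set of Gss, of a design with looser probe rules, read 218, 108 and 310.0 and did not follow the first.

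Of 18 glutathione transferase genes, 8 were above background in all pools (44.4%, below the 52.6% of all genes). The pi-class gene Gstp1 averaged 4151 ± 867, with 3338, 5063 and 4051. Gstm1, a mu-class gene, was at 1827, 2487 and 2520.5 by a probe set of the family type, which can read related transcripts. The zeta-class gene Gstz1, whose enzyme also acts in tyrosine breakdown, was at 735, 1031 and 822. Pool 1 was the lowest for each of these 3 genes, and their highest pool was 1.38-fold to 1.52-fold above it.

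Mgst3, which encodes a microsomal transferase and peroxidase, was at 1002, 1815 and 892, and Gsto1, whose omega-class enzyme can reduce dehydroascorbate, at 484, 768 and 355. Both were highest in pool 2 and lowest in pool 3, 2.04-fold and 2.16-fold apart. The summed red cell genes also had their highest value in pool 2 and their lowest in pool 3. Car2 alone, at 4979, 6616 and 4288, made up much of that sum. The summed Müller glia genes, at 22585, 26744 and 19268, had the same highest and lowest pool. Apoe, at 5366, 6568 and 3413, and Dbi, at 5906, 6802 and 4408, made up much of that sum. Of the glia genes above background in all pools, Apoe, Dbi, Crym and Car14 had these highest and lowest pools themselves. Rlbp1, at 3194, 3086 and 2420, did not, nor did Glul, Dkk3, Clu and Hes1. Of all genes above background, 53.4% were highest in pool 2 and 43.7% lowest in pool 3. The part of red cells or glia in the Mgst3 and Gsto1 values was not tested. The alpha-class gene Gsta2 was at 177, 204 and 379, close to the bar in pools 1 and 2 and higher in pool 3. The remaining mu-class genes above background, Gstm3 at 509, 432 and 467 and Gstm5 at 1357, 1400.3 and 1121, varied by 1.18-fold and 1.25-fold. Other probe sets above background in all pools varied more and in another order, at 441, 483 and 309 for Gstm3 (1.56-fold) and 3758, 6188 and 5623 for Gstm5 (1.65-fold). Mu-class genes are close paralogs and their probes can read each other, so the value of a single one is uncertain.

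Gstk1, the kappa-class gene of mitochondria and peroxisomes, passed the bar in pool 2 alone, at 69.6, 189.5 and 27.2. Below background in every pool were Gsta1, Gsta3, Gsta4, Gstm2, Gstm6, Gstt1, Gstt2, Mgst1 and Mgst2, with values from 4.81 (Gstm6) to 121.9 (Mgst2). Gsta4, whose enzyme clears the lipid aldehyde hydroxynonenal, was among these at 48.4, 32.4 and 108.

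Glutathione peroxidases reduce hydrogen peroxide and lipid peroxides, and 4 of 6 were above background in all pools (66.7%, against 52.6% of all genes). Gpx4, which reduces peroxides within membranes, was at 1822, 1638 and 1839.7. Gpx1, the cytosolic form, was at 779.8, 775 and 877. Both were within 1.13-fold across pools with the scaling used, at log2 ranges of 0.18 for Gpx1 and 0.17 for Gpx4. These ranges were wider with the deposited scaling alone (0.36 and 0.35) and with quantile normalisation (0.35 and 0.42). The secreted form Gpx3 was at 291, 396 and 343, and Gpx2, known from the gut, at 184, 252 and 259, close to the bar in pools 1 and 3. Gpx5, known from the epididymis, and Gpx7, of the endoplasmic reticulum, were below it, at 139.6, 169 and 96.3 and 101, 149 and 35.3.

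Among peroxiredoxins, which reduce peroxides with thiols from thioredoxin, Prdx2 had the widest spread. Its chosen probe set was at 419.9, 638 and 1246, lowest in pool 1 and 2.97-fold higher in pool 3 (limma adjusted p = 0.0607 for the spread over the pools, not for the fold). A second probe set, of the kind whose probes are common to a group of transcripts, was at 9632, 11508 and 11464 and varied by 1.19-fold. The remaining one read 2.98, 5.01 and 51.8, below background in each pool. In the 2 probe sets above background pool 1 was lowest, while pool 3 stood apart in the chosen one only. Prdx2 protein is also abundant in red cells, and of 11 measured red cell genes 4 were above background in all pools and 2 at the floor in every pool. The red cell list summed to 9947, 15884 and 9175. Pool 1 was the one with low lens genes and with the highest actin ratio. The part of red cells, lens or RNA length in the Prdx2 values was not tested.

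Prdx3, the mitochondrial peroxiredoxin gene, was at 1309, 1917 and 1304, highest in pool 2. Prdx4, of the endoplasmic reticulum, was at 527, 448 and 421. Srxn1, which encodes sulfiredoxin, the enzyme that repairs over-oxidised peroxiredoxins, passed the bar in pool 1 alone, at 194, 167 and 63.2. Another probe set of Srxn1 read 189.9, 80.9 and 229.6 and was lowest in pool 2 instead of pool 3.

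All 4 genes whose enzymes remove superoxide and hydrogen peroxide directly were above background in all pools, against 52.6% of all genes. Of these 4, 3 were highest in pool 1, as were 26.3% of all genes above background. Sod1, the copper and zinc enzyme of the cytosol, was at 2163, 1759 and 1739. Sod2, the manganese enzyme of mitochondria, was at 514, 368 and 241, with pool 3 just above the bar and pool 1 2.13-fold higher (limma adjusted p = 0.846). The catalase gene Cat was at 339, 201 and 261 by its chosen probe set, highest in pool 1, and at 921, 853 and 1136 by another, highest in pool 3. Sod3, the extracellular enzyme, differed from the other 3 in being lowest in pool 1, at 212, 263 and 278.

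Of 7 thioredoxin system genes, 6 were above background in all pools (85.7%, against 52.6% of all genes). Txn1, cytosolic thioredoxin, was at 3198, 4625 and 3519, and the mitochondrial Txn2 at 1004, 1359.8 and 1353. Txnrd1, the cytosolic thioredoxin reductase, was at 714, 892 and 778. All 3 were lowest in pool 1, by 1.25-fold to 1.45-fold against their highest pool. Txnrd3, which reduces both thioredoxin and glutathione, was at 754, 894 and 1109 by 1 probe set and below background at 24.1, 60.3 and 28.5 by another. Txnip, the thioredoxin inhibitor, was at 302, 334 and 298, and a second probe set at 913, 1063 and 974 was as even, with 1.12-fold and 1.16-fold between pools. Glrx, glutaredoxin, was at 460.2, 508 and 551. The mitochondrial reductase Txnrd2 was below background at 147, 134 and 168.

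Of the Nrf factors, Nfe2l2 was at 389.9, 428 and 434, within 1.11-fold across pools. Nfe2l1, a relative known for driving proteasome genes, was at 1229.5, 1148 and 1318, and a second probe set at 383, 662 and 576. Their relative Nfe2l3 and the gene of the inhibitor, Keap1, were below background at 45.9, 2.18 and 100.1 and 47.1, 24.1 and 54.6. Nqo1, a quinone reductase gene widely used as a readout of Nrf2, was below it by both its probe sets, at 65.8, 71.6 and 6.91 and 8.75, 41.7 and 43.5.

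Hmox1, the inducible heme oxygenase gene, was at 819.7, 1353 and 1999.9, with pool 1 lowest and pool 3 2.44-fold higher (limma adjusted p = 0.257, unadjusted p = 0.00622). The constitutive Hmox2 was at 189.6, 226 and 216, above the bar in pools 1 and 2. Hmox1 is also known from macrophages. The 19 measured vessel and immune genes summed to 4905, 4691 and 4931, with 7 above background in all pools and 2 at the floor throughout. The sum mixes vessel with immune genes and does not follow immune cells alone. The median log2 deviation of the 7 genes above background was -0.12, -0.04 and 0.21, lowest in pool 1 and highest in pool 3. Of these genes Pecam1 alone, at 254, 258 and 346, had that lowest and highest pool itself. The immune genes among them did not. Cx3cr1 was at 402, 357 and 578 and Cd14 at 581, 351 and 562. C1qa was at 327, 400 and 370 and C1qc at 387, 667 and 654. The part of these cells in the Hmox1 values was not tested, nor was that of the low lens genes and high actin ratio of pool 1.

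RefSeq promoter windows of assembly GRCm38.p6, from 250 bases before to 50 bases after a start site, were at hand for 61 of the 69 genes (79 windows). The core of the antioxidant response element, TGACNNNGC, was searched on both strands, and 10 of 79 windows held it (12.7%), from 10 genes, against 12.4% of all 32851 windows. Of these genes, 7 were above background in all pools, and the stretch around each match is shown 5′ to 3′ on the gene's strand with the match in capitals, to set the letters beside the values of the genes. In Gclm, Sod1 and Txnrd1 the match lies on the opposite strand and is printed as its reverse complement. The match of Gclm overlaps one of the metal response element described below.
Gclm, chr3:122245408-122245446, + strand: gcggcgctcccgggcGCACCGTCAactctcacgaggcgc
Gstm5, chr3:107895797-107895835, + strand: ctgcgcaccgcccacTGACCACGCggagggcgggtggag
Mt2, chr8:94172524-94172562, + strand: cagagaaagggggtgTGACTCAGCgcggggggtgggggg
Nfe2l2, chr2:75704880-75704913, - strand: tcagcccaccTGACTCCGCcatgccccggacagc
Selenok, chr14:29968321-29968359, + strand: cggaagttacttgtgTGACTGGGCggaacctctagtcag
Sod1, chr16:90220691-90220729, + strand: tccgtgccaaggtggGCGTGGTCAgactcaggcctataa
Txnrd1, chr10:82859099-82859137, + strand: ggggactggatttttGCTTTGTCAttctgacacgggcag
These genes did not share 1 order of the pools: Sod1 was highest in pool 1, Mt2 and Nfe2l2 in pool 3, and Gclm, Gstm5, Selenok and Txnrd1 in pool 2, an order that for Gclm, Gstm5 and Selenok changed with the scaling between arrays. A match is a description of the letters and not a binding site, and its absence from a window says only that the letters are not there.

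All 4 metal-binding genes were above background in all pools, against 52.6% of all genes. Metallothioneins are small cysteine-rich proteins that hold zinc and copper, and Mt3 is the form known from neurons. Mt1 was at 328, 474 and 270.1, highest in pool 2. Mt2 was at 655, 803 and 836, lowest in pool 1. Mt3 was at 1354, 655 and 864, highest in pool 1 and 2.07-fold above pool 2 (limma adjusted p = 0.641, unadjusted p = 0.0329). The 3 genes, which lie close together on chromosome 8, thus had 3 different highest pools. Fth1, the ferritin heavy chain gene of iron storage, was at 5175, 6126 and 5244, with a second probe set at 5341, 6544 and 8216.

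Metallothionein genes are induced by zinc through metal response elements, whose core was searched on both strands as TGCACNC or TGCGCNC, so that a match can lie in the same place on both. It was in 25 of 79 windows of these genes (31.6%) and in 25.7% of all windows. Mt1 had 3 matches, Mt2 had 4 and Mt3 had 1, in capitals in their windows, which are given whole so that the 3 neighbours can be compared.
Mt1, chr8:94178839-94179138, + strand: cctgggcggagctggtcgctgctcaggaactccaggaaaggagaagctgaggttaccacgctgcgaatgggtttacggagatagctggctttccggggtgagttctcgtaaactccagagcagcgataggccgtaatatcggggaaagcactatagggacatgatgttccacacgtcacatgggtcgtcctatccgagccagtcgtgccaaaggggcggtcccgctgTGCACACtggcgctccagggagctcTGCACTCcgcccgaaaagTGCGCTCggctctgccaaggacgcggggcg
Mt2, chr8:94172368-94172667, + strand: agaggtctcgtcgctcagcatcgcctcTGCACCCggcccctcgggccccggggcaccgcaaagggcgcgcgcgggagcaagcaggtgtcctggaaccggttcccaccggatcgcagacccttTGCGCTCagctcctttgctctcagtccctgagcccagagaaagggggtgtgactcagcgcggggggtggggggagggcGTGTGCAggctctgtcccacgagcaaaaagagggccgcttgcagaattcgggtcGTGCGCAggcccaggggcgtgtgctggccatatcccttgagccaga
Mt3, chr8:94152357-94152656, + strand: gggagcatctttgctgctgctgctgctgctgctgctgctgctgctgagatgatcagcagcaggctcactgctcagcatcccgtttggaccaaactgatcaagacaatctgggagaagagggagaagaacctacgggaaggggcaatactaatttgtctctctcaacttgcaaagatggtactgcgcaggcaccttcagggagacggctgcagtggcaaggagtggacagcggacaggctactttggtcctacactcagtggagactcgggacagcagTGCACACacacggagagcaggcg
In Mt1 the matches began 23 bases before the start and 2 and 20 bases after it. Those of Mt2 began 223, 128 and 50 bases before and 4 bases after it, and that of Mt3 27 bases after it. Positions and counts of matches depend on the start site given by RefSeq, and bases outside the windows were not searched.

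Selenoproteins carry selenocysteine, and many act in the endoplasmic reticulum. With Msrb1, a selenium-containing methionine sulfoxide reductase, 6 of 8 such genes were above background in all pools, against 52.6% of all genes. Of the 6, 5 were highest in pool 2, as were 53.4% of all genes above background. With the deposited scaling alone and with quantile normalisation it was 3 of the 6, as Selenof was then highest in pool 3 and Selenok in pool 1. Selenot was at 3656, 7467 and 4176, 2.04-fold higher in pool 2 than in pool 1 (limma adjusted p = 0.554, unadjusted p = 0.023). Selenof was at 4274, 6398 and 5662 and, by a second probe set, at 2753, 3683 and 3085, in the same order of pools.

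Selenoh was at 1576, 2164 and 1338 and Msrb1 at 601, 789.9 and 514, both highest in pool 2 and lowest in pool 3. Selenok, which acts in the endoplasmic reticulum membrane, was at 1697, 1698 and 1354. Pool 2 and pool 1 were within 1 unit of each other there. Selenos, which takes part in clearing misfolded proteins, was at 402, 362 and 353 and was the 1 of the 6 highest in pool 1. Below background were Selenow at 99.9, 99.7 and 111 and Selenov at 32.9, 27.8 and 30.4.

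Of the genes matched by spelling only, Sel1l, an adaptor in the breakdown of endoplasmic reticulum proteins, was at 439, 899 and 575 by its chosen probe set and at 325, 246 and 289 by another, with opposite highest and lowest pools. Selplg was at 229, 268 and 245. Selenbp1 passed the bar in pool 1 alone, at 206, 105 and 62.0. Msr1, Sele, Selp and Sel1l2 were below background in every pool, with values from 2.61 (Sele) to 155.9 (Msr1).

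The spread between pools was tested over the 6211 brightest probe sets, setting the variance of each over the 3 pools against that usual at its intensity. None of the 57 probe sets of these genes that were bright enough passed (limma adjusted p below 0.05), against 83 of all 6211 (1.34%). At an unadjusted p below 0.05 there were 7 (12.3%), against 6.76% of all. They were Prdx2 (limma adjusted p = 0.0607), the second probe set of Gstm2 (limma adjusted p = 0.108), Hmox1, Selenot, Mgst3 (limma adjusted p = 0.569), Mt3 and Gsto1 (limma adjusted p = 0.714). That probe set of Gstm2 was at 499.9, 375 and 1063, whereas the chosen one was below background at 29.6, 102 and 52.2. A probe set that did not pass is not shown to be even across pools. The other 36 probe sets were too dim to be tested.

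A range over 2-fold between the highest and lowest pool was seen for 11 of the 57 (19.3%), against 8.63% of all tested probe sets. Beside the 7 above these were Sod2, Sel1l, Gsta2 and a further probe set of Gstm5, at 139, 244 and 323. The count was 7 with the deposited scaling alone or with quantile normalisation, 5 with a pseudocount of 50, and 3, 6 and 3 without pools 1, 2 and 3. The typical gene varied little: the median range was 1.38-fold for the 57 and 1.4-fold for all, the median SD 0.25 and 0.26 on the log2 scale, and 34 of the 57 (59.6%, against 63.1% of all) stayed within 1.5-fold.

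**Figure D2:**
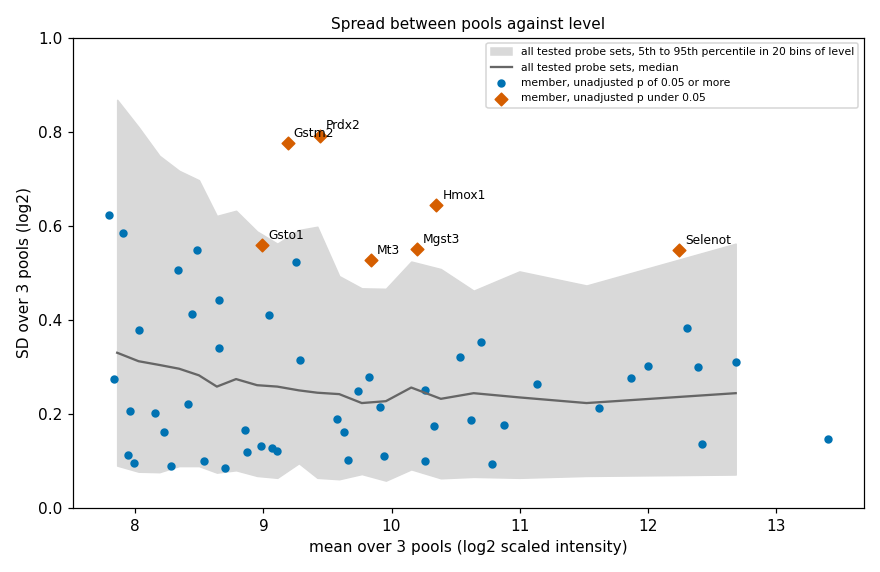
SD over the 3 pools against the mean, both log2, for the 57 tested probe sets of antioxidant genes, over the median (line) and the 5th to 95th percentile (band) of all 6211 tested. The 7 with an unadjusted p below 0.05, as diamonds, lie near or above the band's upper edge, and the others scatter around the median line.

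Across the 43 genes above background the median log2 deviation from a gene's own mean was -0.11, 0.11 and -0.03 in pools 1, 2 and 3, against -0.04, 0.12 and -0.07 for all genes above background. The median scaling added to that of the deposit had moved pool 2 by 0.12 on the log2 scale, and without this step the median of these genes in pool 2 was -0.01. Pool 2 was highest for 22 of the 43 genes (51.2%, against 53.4% of all genes above background), pool 3 for 13 (30.2%, against 20.4%) and pool 1 for 8 (18.6%, against 26.3%). Pool 1 was lowest for 23 (53.5%, against 37.9%), pool 3 for 14 (32.6%, against 43.7%) and pool 2 for 6 (14.0%, against 18.4%). The highest pool was the same for 34 of the 43 under all 3 ways of scaling, and with the deposited scaling alone pool 2 was highest for 14 and pool 3 for 18.

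By role, and with no test of these medians, the 4 dismutase and catalase genes had a median log2 deviation of 0.29 in pool 1. The 6 thioredoxin system genes had a median of -0.19 in pool 1. The transferases had -0.22, 0.21 and -0.03 over 8 genes, and the selenoproteins with Msrb1 had -0.07, 0.3 and -0.22 over 6. The summed rod genes were 64232, 82226 and 67662 and the summed Müller glia genes 22585, 26744 and 19268, both highest in pool 2 as well. Pool 1 was the pool of low lens genes, whose median log2 deviation there was -1.44, and of the actin ratio of 1.81. The part of these in the medians was not tested.

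**Figure D3:**
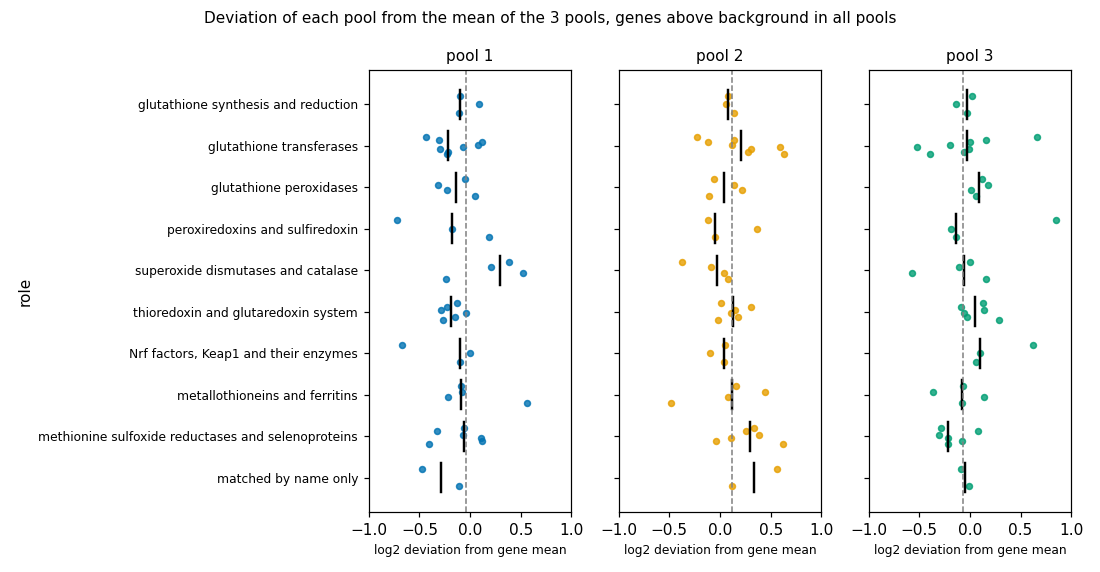
Log2 deviation of each pool from the mean of the 3 pools for each of the 43 genes above background, by role (points), with the median of the role as a bar and the median of all genes above background as a dashed line. The dismutase and catalase genes lie to the right in pool 1 apart from Sod3, and Prdx2 and Hmox1 lie far left in pool 1 and far right in pool 3.

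More than 1 probe set read 21 of the genes, giving 24 pairs of the chosen and another probe set. In 11 pairs both were above background in all pools, and in 4 of these (Gstm1, Selenof, Txnip and a pair of Gstm5) both had the same highest pool. In none of the 11 did the deviations of a pool differ by over 2-fold between the probe sets. The largest such differences were 0.77 for Sel1l and 0.76 for Prdx2 on the log2 scale. In 5 pairs in which at least 1 probe set was not above background in all pools (Gpx5, Gstm2, Gstm5, Msr1 and Srxn1), they did differ by over 2-fold.

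**Figure D4:**
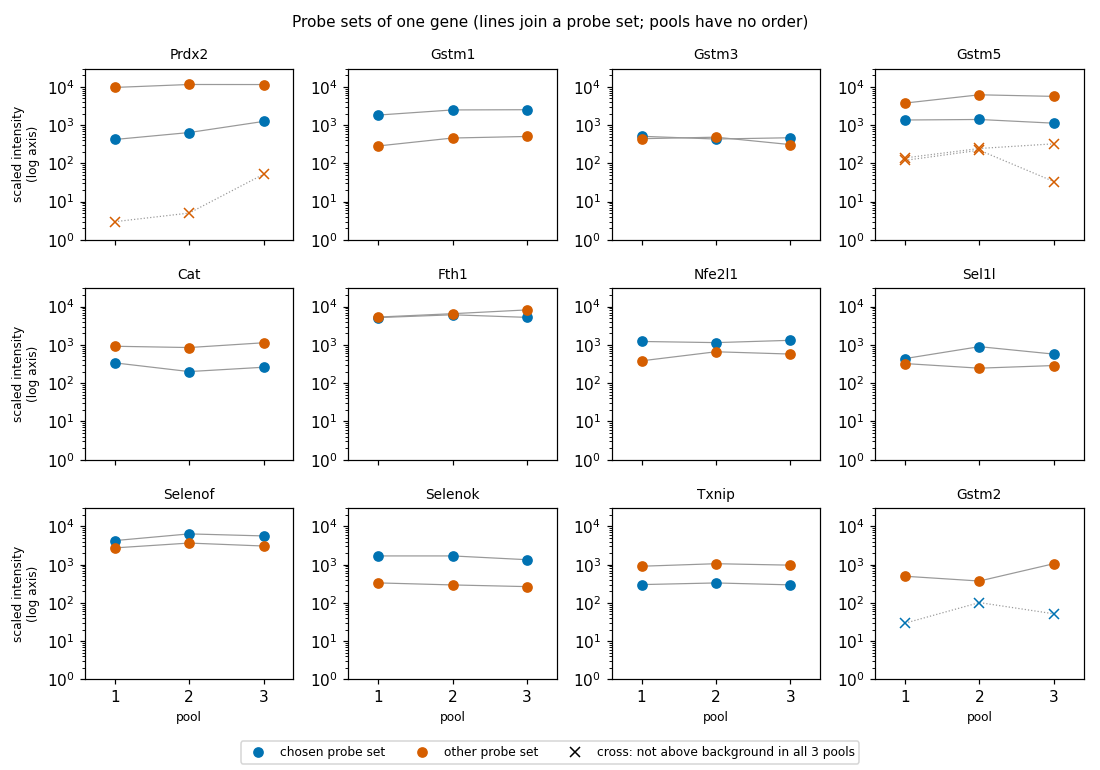
Scaled intensity (log axis) in the 3 pools for every probe set of 12 genes read by more than 1, with the chosen one in blue, the others in orange, and crosses for probe sets not above background in all pools. Both probe sets of Selenof have the same order of pools, while those of Prdx2, Sel1l and Gstm2 do not.

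Of genes that work beside these, such as enzymes supplying NADPH, handling cysteine, iron or selenium, or folding proteins through disulfides, 32 of 56 measured (57.1%) were above background in all pools, near the 52.6% of all genes. None of the 34 whose chosen probe set was tested passed the spread test (limma adjusted p below 0.05), and 3 had an unadjusted p below 0.05, as had 6.76% of all tested probe sets. These were Pdia3, a disulfide isomerase gene, at 761, 363 and 409, Atox1, a copper chaperone gene, at 1727, 3133 and 1755, and Mtf1, at 484, 300.1 and 187, with unadjusted p of 0.0404, 0.0478 and 0.0324. Pdia3 was highest in pool 1 and Atox1 in pool 2. Mtf1, named after its values were seen, encodes the factor that binds metal response elements and was below its bar in pool 3.

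The widest deviations among those above background in all pools, after Pdia3 and Atox1, were in 4 genes. Pstk, a kinase gene of selenocysteine synthesis, was at 448, 521 and 270.2, and the disulfide isomerase genes Txndc5 and Pdia4 were at 757, 1308 and 746 and 454, 733 and 835. Tkt, transketolase of the pentose phosphate pathway, was at 1203, 1837 and 1126. Pool 2 was highest for Pstk, Txndc5 and Tkt, and pool 3 for Pdia4. Slc7a11, the cystine carrier gene that supplies glutathione synthesis, was named after its values were seen and was below background at 44.4, 9.15 and 46.5.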

How the data were processed

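The authors deposited 1 intensity value per probe set and sample on a linear scale. These were already scaled between arrays, with trimmed means of 500.2, 500.3 and 500.2. The software behind the values is not given in the sources used here, nor is any background correction. Names came from the platform annotation, and gene IDs matched to RefSeq gave current symbols. After 66 control probe sets were left out, each array was further set to the mean of the 3 medians (factors 0.962, 1.09 and 0.959), floored at the 20th percentile (42.2) and put on the log2 scale. A gene's chosen probe set was one with no letter before its ending, then the one with the highest mean.

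Excess spread was tested on the brightest 50% of probe sets. Each variance over 3 arrays, with 2 degrees of freedom, was compared with the prior variance from squeezeVar in limma 3.58.1 (R 4.3.3, robust, level as covariate, prior degrees of freedom 279), with Benjamini-Hochberg adjustment at 0.05 over all 6211. The test was also tried on simulated data, built on the levels and prior spread of the main fit, where it missed most 2-fold changes in 1 array. The naming rule was every member, with values in each pool for those above background in at least 1 pool and a range for the rest, and the 6 neighbouring genes of widest mean deviation. Outside it, pool values of some dim members, other probe sets, Mtf1 and Slc7a11 were added after their values were seen. Other scalings, floors, filters, bars and probe set choices, and leaving out each pool, were tried. The genes and lists were chosen with earlier results of these data known.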

Additional observations from a re-analysis of the deposited data

How the results depend on the processing

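No probe set of these genes had excess spread under any of the 10 alternatives of limma's test (other scaling, filter, floor, pseudocount, no robust option, each pool left out), with 2 to 7 at an unadjusted p below 0.05 and lowest adjusted p-values from 0.0617 to 0.596. The number called over all probe sets moved more: it was 6 with the deposited scaling alone, 6 with quantile normalisation and 0 without the filter on dim probe sets, against 83. The limma adjusted p of Prdx2 was 0.487 and 0.367 under the first pair and 0.838, 0.555 and 0.996 without pools 1, 2 and 3.

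Genes above background in all pools numbered 33 to 46 under the 11 alternatives, against 43. The count was 36 of 69 with the probe set of highest mean and 39 of 69 with the median over probe sets. All genes then stood at 46.5% and 47.9%. When a pool was left out the count was 43 to 45. The count without genes matched by spelling only was added after the data were seen. The log2 range of the 48 genes above background in at least 1 pool moved by over 1 SD for 10 with the deposited scaling alone and 7 with quantile normalisation, and for none with the pseudocount. Leaving out each pool moved 48 of 144 such ranges. The cause of these shifts was not tested. No paired analysis was possible because the samples form 1 group. Dim probe sets, 36 of 93 here, limit what could be tested.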
